A study of Danio rerio with 6 samples.

Results

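The proneural basic helix-loop-helix (bHLH) factors examined here are 6 genes, neurog1, neurod2, neurod4, neurod6b, atoh1a and olig2. They were taken by name from an RNA-seq table of 29126 gene entries, and each name matched 1 entry. All 6 stand as protein-coding genes under the same symbols in the RefSeq table of the zebrafish genome. The 6 libraries come from Tg(fli1:EGFP) zebrafish, whose EGFP reporter is under control of the fli1a promoter and lights up vessels, some blood cells and pharyngeal arch tissue. They form 3 cell populations named by the reporter, High-Fli1+, Low-Fli1+ and Fli1-, with 2 libraries each and the same transgene in all. Neither the age of the fish nor the way the populations were separated is given in the labels. Nothing says that the 2 libraries of a population come from separate fish or separate sorts, so p-values measure the spread between these libraries, which may be technical.

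Proneural bHLH proteins are transcription factors that turn neural progenitors into neurons. They pair with broadly expressed E proteins to bind DNA, and Id proteins block this by taking up the E proteins. Neurogenin factors act early and switch on Delta ligands, which signal through Notch in neighbouring cells to raise Her repressors there and hold those cells as progenitors. NeuroD factors act later, in cells already becoming neurons, and Olig2 marks progenitors of motor neurons and oligodendrocytes in the spinal cord.

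Proneural transcripts were scarce in High-Fli1+ cells, while Low-Fli1+ cells held neurod4 near its Fli1- level and an intermediate level of neurod6b. The 6 genes summed to 7.23 and 3.34 FPKM (fragments mapped, scaled by transcript length and library size) in High-Fli1+ libraries, to 103 and 118 in Low-Fli1+ libraries and to 149 and 173 in Fli1- libraries. Of the 5 that could be tested, 3 fell in High-Fli1+ against Fli1- cells, namely neurod4, neurod6b and olig2, and 0 rose. The call of olig2 rests on listed values of 0, and olig2 passed the filter on low values through the Fli1- libraries. Against Low-Fli1+ cells, neurod4 and neurod6b fell in High-Fli1+ cells. No member was called between Low-Fli1+ and Fli1- cells. A call is a Benjamini-Hochberg adjusted p under 0.05 from limma over all 19237 genes tested, on log2(FPKM + 1), the scale of every fold change here. Of all genes tested, 17.2% were called in High-Fli1+ against Fli1- cells (11.5% lower and 5.79% higher). In High-Fli1+ against Low-Fli1+ cells 5.37% were called (4.15% lower and 1.22% higher). In Low-Fli1+ against Fli1- cells 3.23% were called (1.1% lower and 2.14% higher).

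**Figure D1:**
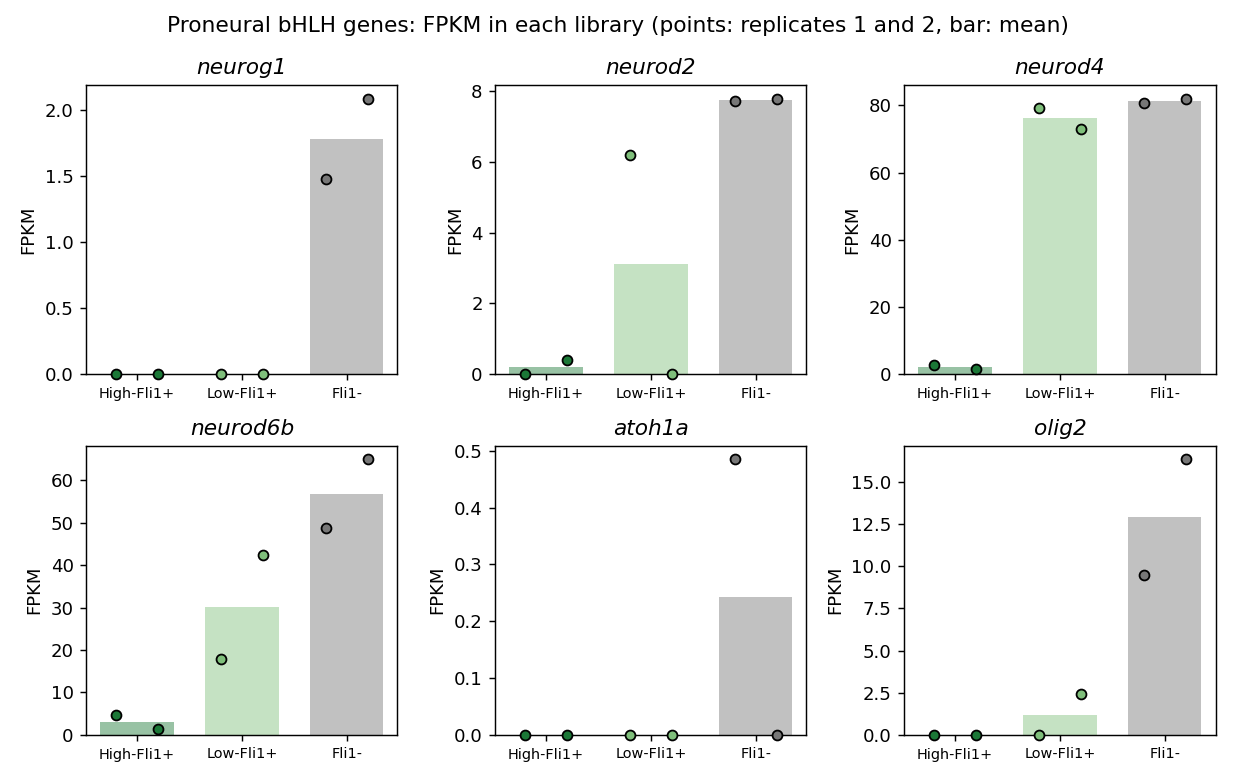
FPKM of each of the 6 proneural bHLH genes (vertical axis, a scale of its own per gene) in High-Fli1+, Low-Fli1+ and Fli1- cells, with points for the 2 libraries and a bar for their mean. The gene neurod4 stood at 79.3 and 72.9 FPKM in Low-Fli1+ libraries, near its Fli1- values, and at 2.57 and 1.44 in High-Fli1+ libraries.

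FPKM do not show how many fragments were sequenced, and counting errors are therefore not given. Library sums ran from 430723 to 712585 FPKM. Low-Fli1+ replicate 1 had the most entries listed at 0 (14082), and Fli1- replicate 2 the fewest (8451). Low values reached less far down in Low-Fli1+ libraries: of the values above 0, the lowest 5% ended at 0.915 and 0.660 FPKM there, against 0.281 and 0.277 FPKM in Fli1- libraries. Of 78 ribosomal protein genes, which every cell uses, 5 were listed at 0 in Low-Fli1+ replicate 1 and 0 in each other library. A listed 0 is therefore not read as absence, and members with such values are given library by library. Of all genes tested, 7.02% were listed at 0 in both High-Fli1+ libraries, 10.0% in both Low-Fli1+ libraries and 2.22% in both Fli1- libraries. Over all genes tested the median log2 fold change against Fli1- cells was -0.35 for High-Fli1+ and -0.21 for Low-Fli1+ cells, and it was -0.13 for High-Fli1+ set against Low-Fli1+ cells. In these bulk samples, fewer cells of a type and less RNA per cell cannot be told apart.

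Among the NeuroD factors, neurod4 had the highest level of the 6 genes in both Low-Fli1+ and both Fli1- libraries. In mouse, Neurod4 acts with other bHLH factors in forming neurons of the retina and brain. It stood at 2.57 and 1.44 FPKM in High-Fli1+ libraries, at 79.3 and 72.9 in Low-Fli1+ libraries and at 80.8 and 82.0 in Fli1- libraries. Both High-Fli1+ values lay far below all others, and the Low-Fli1+ values lay just below the Fli1- ones. The means were 2.01 ± 0.795, 76.1 ± 4.51 and 81.4 ± 0.825 FPKM in High-Fli1+, Low-Fli1+ and Fli1- cells (SD, n = 2 each), and the High-Fli1+ mean was 0.0247 of the Fli1- mean. By limma neurod4 fell in High-Fli1+ cells both against Fli1- cells, with a log2 fold change of -4.80 ± 0.28 (SE) at an adjusted p of 0.00235, and against Low-Fli1+ cells, with -4.70 ± 0.28 (SE) at an adjusted p of 0.00745. For Low-Fli1+ against Fli1- cells the change was -0.10 ± 0.28 (SE) on the log2 scale, not called at an adjusted p of 0.883.

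Leaving out any of the 6 libraries kept the call of neurod4 in High-Fli1+ against Fli1- cells, as long as the genes tested were kept the same. The log2 fold changes then lay between -5.07 and -4.53. Without High-Fli1+ replicate 2 the call was only just kept, and each such fit leaves a single library in 1 population. With the filter on low values recomputed over the 5 libraries left, an alternative chosen after seeing the data, the call was lost without Fli1- replicate 1 or 2 (adjusted p = 0.0610 and 0.0544 by limma). The call in High-Fli1+ against Low-Fli1+ cells was lost without any library other than Low-Fli1+ replicate 2. The adjusted p by limma was then 0.138 and 0.139 without Fli1- replicates 1 and 2, and 0.0501 without Low-Fli1+ replicate 1. It was 0.0690 and 0.0991 without the 2 High-Fli1+ libraries in turn, and 0.143 with only the 2 populations compared in the fit.

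The gene neurod6b, a NeuroD factor that in mouse marks maturing excitatory neurons of the forebrain, held an intermediate level in Low-Fli1+ cells. It stood at 4.66 and 1.497 FPKM in High-Fli1+ libraries, at 17.9 and 42.3 in Low-Fli1+ libraries and at 48.8 and 65.0 in Fli1- libraries. The 3 populations did not overlap, though Low-Fli1+ replicate 2 lay nearer to Fli1- replicate 1 than to its own pair. High-Fli1+ against Fli1- cells gave a log2 fold change of -3.93 ± 0.57 (SE, adjusted p = 0.00995 by limma). High-Fli1+ against Low-Fli1+ cells gave -2.93 ± 0.57 (SE, adjusted p = 0.0471 by limma). Low-Fli1+ against Fli1- cells were not called (-1.0 ± 0.57 (SE), adjusted p = 0.392).

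The call of neurod6b in High-Fli1+ against Low-Fli1+ cells held in 1 of the 9 other settings that left out no replicate, a filter at a mean of 2 FPKM. It was lost with a pseudocount of 0.1 or 5 (adjusted p = 0.0586 and 0.0521 by limma), quantile normalization or median-ratio scaling (0.0604 and 0.0590), and without a variance trend or with the replicate block (0.0600 and 0.0619). Without a filter the adjusted p was 0.150, and with only these 2 populations in the fit it was 0.191. The call was also lost without each of the 6 libraries in turn, where its log2 fold change ran from -3.53 to -2.33. In High-Fli1+ against Fli1- cells the adjusted p by limma was 0.125 and 0.133 without Fli1- replicates 1 and 2, and 0.0559 and 0.0805 without the 2 High-Fli1+ libraries in turn, so that the call was lost without any of these 4.

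The gene neurod2, a regulator of neuron maturation in mouse, was listed at 0 and at 0.393 FPKM in High-Fli1+ libraries, at 6.20 and 0 in Low-Fli1+ libraries and at 7.73 and 7.78 in Fli1- libraries. The 2 Low-Fli1+ libraries were at opposite ends: replicate 1 was close to the Fli1- level and replicate 2 was listed at 0. The log2 fold change was -2.89 ± 0.96 in High-Fli1+ against Fli1- cells and -1.71 ± 0.96 in Low-Fli1+ against Fli1- cells (SE, adjusted p = 0.0979 and 0.391 by limma). Without Low-Fli1+ replicate 1 or replicate 2, the comparison of High-Fli1+ with Fli1- cells passed (adjusted p = 0.0145 and 0.0158 by limma) at an equal log2 fold change, as it did with only these 2 populations in the fit (0.0163). Between High-Fli1+ and Low-Fli1+ cells the log2 fold change was -1.19 ± 0.96 (SE, adjusted p = 0.498). It became -2.61 without Low-Fli1+ replicate 2 (adjusted p = 0.0440) and turned to 0.24 without Low-Fli1+ replicate 1 (adjusted p = 0.748).

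The early-acting factors were less abundant than neurod4 and neurod6b in every Fli1- library. Neurogenin 1, encoded by neurog1, specifies sensory neurons of cranial ganglia and of the embryonic spinal cord. It was listed at 0 in both High-Fli1+ and both Low-Fli1+ libraries and stood at 1.48 and 2.09 FPKM in Fli1- libraries. It was above 0 in the 2 Fli1- libraries alone, and it passed the filter on low values, a mean of at least 0.5 FPKM, through them. The difference of means was -1.78 FPKM in both comparisons against Fli1- cells (adjusted p = 0.0563 for High-Fli1+ and 0.110 for Low-Fli1+ by limma). In High-Fli1+ against Fli1- cells neurog1 was called with a pseudocount of 0.1 (adjusted p = 0.0273 by limma) and without a filter (0.0137). It was also called without a variance trend (0.0379) and with only the 2 populations compared (0.0246). It was not called there with a pseudocount of 5 (0.0909), quantile normalization (0.274), median-ratio scaling (0.0599) or the replicate block (0.107). Without either Low-Fli1+ library it was called in High-Fli1+ against Fli1- cells, and without either High-Fli1+ library it was not. In Low-Fli1+ against Fli1- cells it was called without a filter (adjusted p = 0.0238 by limma). With either Fli1- library left out, neurog1 was above 0 in a single library and had no spread within any population. Calls from those fits are therefore not read. No fold is given against values of 0.

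The gene atoh1a, which specifies granule neuron progenitors of the hindbrain and sensory hair cells, was the rarest of the 6. It was listed at 0 in both High-Fli1+ and both Low-Fli1+ libraries and stood at 0.485 and 0 FPKM in Fli1- libraries. With a mean of 0.0808 FPKM over 6 libraries it did not reach the filter and was not tested.

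The gene olig2 was listed at 0 in both High-Fli1+ libraries, at 0 and 2.41 FPKM in Low-Fli1+ libraries and at 9.45 and 16.3 FPKM in Fli1- libraries. Both Fli1- values lay above all 4 others, and olig2 passed the filter on low values through them. Its mean level fell by 12.9 FPKM in High-Fli1+ against Fli1- cells (adjusted p = 0.0226 by limma, lower in 2 of 2 libraries). This call rests on High-Fli1+ values listed at 0, which are not read as absence. Low-Fli1+ against Fli1- cells gave a log2 fold change of -2.87 ± 0.73 (SE, adjusted p = 0.0980 by limma). Without Low-Fli1+ replicate 2, the only Low-Fli1+ library with olig2 above 0, this comparison rests on a value listed at 0. Its call there is therefore not read. The call of olig2 in High-Fli1+ cells was lost without either Fli1- library (adjusted p = 0.137 and 0.159 by limma) and without either High-Fli1+ library (0.128 and 0.137), and also without a filter on low values (0.0819).

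**Figure D2:**
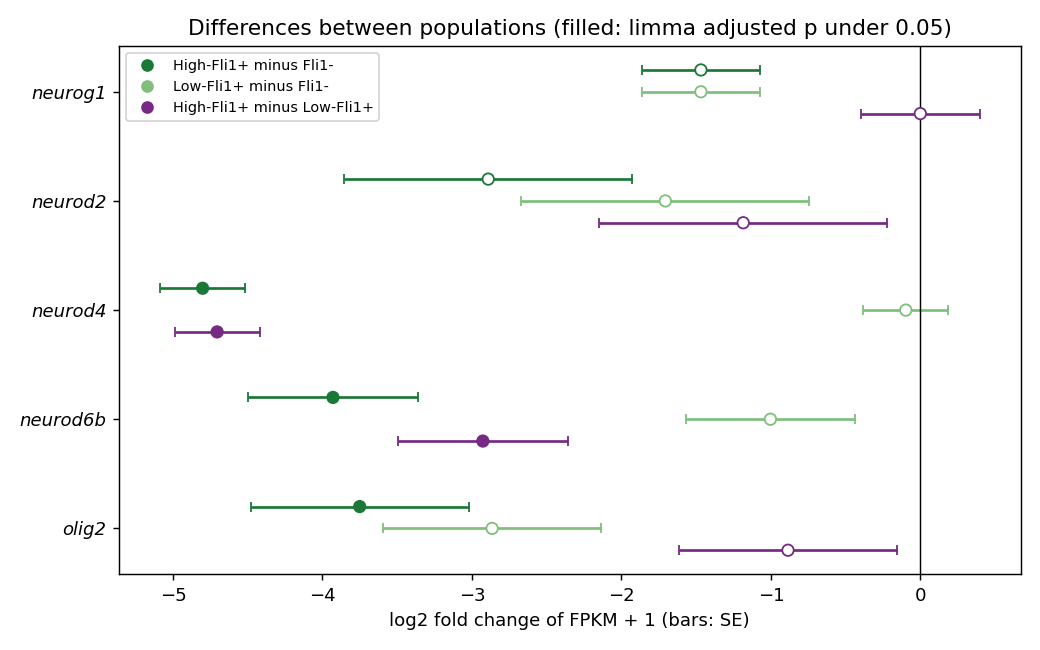
Log2 fold changes of FPKM + 1 (horizontal axis, bars are SE) for the 5 proneural genes tested, for the 3 pairs of populations. Filled points have an adjusted p under 0.05 by limma: neurod4, neurod6b and olig2 in High-Fli1+ against Fli1-, and neurod4 and neurod6b in High-Fli1+ against Low-Fli1+ cells.

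Both libraries of High-Fli1+ cells lay below both of Fli1- cells for 5 of the 6 genes, where 44.2% of all genes tested did so. Both Low-Fli1+ libraries lay below both Fli1- libraries for 5 of the 6, against 30.5% of all genes tested. Among these 5 is neurod4, whose means differed by 5.30 FPKM. In both comparisons the 5 include neurog1, neurod2 and olig2, each with High-Fli1+ and Low-Fli1+ values listed at 0. Of these, neurog1 and olig2 passed the filter on low values through the Fli1- libraries. The gene that overlapped, atoh1a, was not tested, while the shares are of genes tested. High-Fli1+ values lay below Low-Fli1+ values for 2 of the 6, neurod4 and neurod6b, which is near the share over all genes tested (28.3%). The median log2 fold change of the 5 genes tested against Fli1- cells was -3.75 for High-Fli1+ and -1.47 for Low-Fli1+ cells, and it was -1.19 for High-Fli1+ set against Low-Fli1+ cells. These medians leave out atoh1a and include genes fitted against values of 0, whose fitted change depends on the added 1.

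FPKM is a level per transcript length, so the members can be ranked within a population. In Fli1- cells neurod4 came first and neurod6b second, followed by olig2. Next stood neurod2, then neurog1 and atoh1a, and no ranges of these 6 genes overlapped. In High-Fli1+ cells the ranges of neurod4 and neurod6b overlapped, so no order could be read.

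The genes neurod4 and neurod6b together held 100.0% and 88.2% of the summed FPKM of the 6 genes in High-Fli1+ libraries, 94.0% and 97.9% in Low-Fli1+ libraries and 87.1% and 84.9% in Fli1- libraries. The ratio of neurod4 to neurod6b was 0.551 and 0.964 in High-Fli1+ libraries, 4.43 and 1.72 in Low-Fli1+ libraries and 1.66 and 1.26 in Fli1- libraries. Both Low-Fli1+ ratios lay above both Fli1- ratios, and both High-Fli1+ ratios lay below all others. In rank among all entries of a library, those at 0 included, neurod4 stood at the 56.8 and 53.2 percentile in High-Fli1+ libraries. It stood at the 97.1 and 96.6 percentile in Low-Fli1+ libraries and the 96.9 and 97.0 percentile in Fli1- libraries. The number of entries at 0 differed between libraries. Of values above 0, the medians in High-Fli1+ libraries were 6.37 and 5.88 FPKM, above the neurod4 values there.

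Most other neural bHLH genes were also low in High-Fli1+ cells, and in Low-Fli1+ cells some stood near the Fli1- level while others were listed at 0. Exceptions were neurog3, listed at 0 in every library, and atoh1c, whose High-Fli1+ and Fli1- values overlapped (3.51 and 0 against 5.07 and 0.761 FPKM). Of 13 other neural bHLH genes 11 were tested, and 7 fell and 0 rose in High-Fli1+ against Fli1- cells (median log2 fold change -3.14). The 7 include ptf1a, atoh1b and atoh7, which passed the filter on low values through the Fli1- libraries. Their calls rest on listed values of 0, and the median is the value of atoh1b. The gene neurod1, a NeuroD factor of retina, ear and endocrine pancreas, stood at 12.7 and 8.79 FPKM in High-Fli1+, 138 and 132 in Low-Fli1+ libraries and 171 and 198 in Fli1- libraries. Its log2 fold change in High-Fli1+ against Fli1- cells was -4.00 ± 0.25 (SE) at an adjusted p of 0.00235 by limma, and it was called also without each library in turn. Low-Fli1+ against Fli1- cells gave -0.45 for neurod1 (adjusted p = 0.394).

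High-Fli1+ cells were also low, relative to Fli1- cells, in bhlhe22 and nhlh2 (adjusted p = 0.00524 and 0.00425 by limma), bHLH genes that in mouse are expressed in young neurons. The gene bhlhe22 stood at 0.0449 and 0 FPKM in High-Fli1+, 27.7 and 10.6 in Low-Fli1+ libraries and 33.7 and 25.6 in Fli1- libraries. For nhlh2 the values were 0.228 and 1.04 FPKM in High-Fli1+, 11.5 and 15.5 in Low-Fli1+ libraries and 31.3 and 28.3 in Fli1- libraries. In contrast, ptf1a, which specifies inhibitory neurons of retina and hindbrain and acts in pancreas, was listed at 0 in all 4 High-Fli1+ and Low-Fli1+ libraries and stood at 8.32 and 9.68 FPKM in Fli1- libraries. It passed the filter through the Fli1- libraries alone, so its calls (adjusted p = 0.00828 for High-Fli1+ and 0.0293 for Low-Fli1+ by limma) rest on listed values of 0.

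The genes called lower in Low-Fli1+ against Fli1- cells numbered 3 of these 11, namely ptf1a, atoh1b and atoh7, the last 2 named after their values were seen. All 3 were listed at 0 in both Low-Fli1+ libraries and passed the filter through Fli1- libraries, so these calls rest on values that are not read as absence. The gene atoh7, needed for retinal ganglion cells, stood at 0.188 and 0 FPKM in High-Fli1+, 0 and 0 in Low-Fli1+ libraries and 4.12 and 8.21 in Fli1- libraries. The hindbrain and ear factor atoh1b was listed at 0 in all reporter-positive libraries, against 8.99 and 6.80 FPKM in Fli1- libraries. With quantile normalization or median-ratio scaling the count was 2, and each of the 3 calls was lost without at least 3 of the 6 libraries. Whether the change of the early factors differed from that of neurod4 was not tested.

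The E protein partners were not lower with the proneural genes. Of 3 tested (tcf4 was not found under that name), tcf12 rose in both reporter-positive populations. It stood at 135 and 132 FPKM in High-Fli1+ libraries, at 113 and 121 in Low-Fli1+ libraries and at 42.7 and 44.1 in Fli1- libraries. The log2 fold change against Fli1- cells was 1.60 for High-Fli1+ and 1.41 for Low-Fli1+ cells (adjusted p = 0.00709 and 0.0325 by limma). The other two, tcf3a and tcf3b, were not called in High-Fli1+ against Fli1- cells (log2 fold change 0.95 and 0.77, adjusted p = 0.111 and 0.0722). Under median-ratio scaling all 3 were called higher in High-Fli1+ cells.

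Of 5 Id genes, whose proteins sequester E proteins, 2 rose and 1 fell in High-Fli1+ against Fli1- cells. The gene id3 stood at 342 and 280.3 FPKM in High-Fli1+, 101 and 156 in Low-Fli1+ libraries and 52.1 and 63.6 in Fli1- libraries (log2 fold change 2.41 ± 0.29 (SE), adjusted p = 0.00653 by limma). For id1 the values were 447 and 349 FPKM in High-Fli1+, 99.1 and 159 in Low-Fli1+ libraries and 81.8 and 109 in Fli1- libraries (log2 fold change 2.05 ± 0.33 (SE), adjusted p = 0.0128 by limma). The gene id4 moved the other way, at 1.45 and 0 FPKM in High-Fli1+, 9.58 and 12.4 in Low-Fli1+ libraries and 13.8 and 13.7 in Fli1- libraries (log2 fold change -3.23 ± 0.56 (SE), adjusted p = 0.0164 by limma). None was called in Low-Fli1+ against Fli1- cells by limma, and 1 was higher at an unadjusted p under 0.05.

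The Delta ligands dla, dlb and dld, targets of proneural factors, fell in High-Fli1+ cells. Of 12 Notch ligands and receptors tested, 3 fell and 2 rose in High-Fli1+ against Fli1- cells. The ligand dla stood at 4.78 and 0.716 FPKM in High-Fli1+, 13.5 and 16.8 in Low-Fli1+ libraries and 42.0 and 42.6 in Fli1- libraries (log2 fold change -3.78 ± 0.60 (SE), adjusted p = 0.0126 by limma). The log2 fold changes of dlb and dld were -3.06 and -2.96 (adjusted p = 0.0132 and 0.00929 by limma), while dlc was not called (-1.41, adjusted p = 0.0680). The receptor notch2 rose, at 65.4 and 68.8 FPKM in High-Fli1+, 43.9 and 51.6 in Low-Fli1+ libraries and 7.92 and 8.17 in Fli1- libraries, and was also called in Low-Fli1+ against Fli1- cells (adjusted p = 0.0208). The ligand dll4 of arteries was not called (log2 fold change 1.24, adjusted p = 0.0967).

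The Her and Hes repressors went both ways. Of 14 tested, 2 rose and 1 fell in High-Fli1+ against Fli1- cells. The gene her6 stood at 1151 and 1444 FPKM in High-Fli1+, 497 and 724 in Low-Fli1+ libraries and 170 and 226 in Fli1- libraries (log2 fold change 2.71 ± 0.33 (SE), adjusted p = 0.00672 by limma), and her9 also rose (1.58 on the log2 scale, adjusted p = 0.0116). The gene hes6, which in mouse and frog promotes neuron formation rather than blocking it, stood at 6.16 and 6.13 FPKM in High-Fli1+, 13.8 and 16.1 in Low-Fli1+ libraries and 29.7 and 36.9 in Fli1- libraries, and fell by 2.25 on the log2 scale (adjusted p = 0.00790 by limma). In Low-Fli1+ against Fli1- cells none was called by limma, against 2 higher and 3 lower at an unadjusted p under 0.05, and 2 were called higher under quantile normalization.

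Genes acting downstream in neuron formation fell in High-Fli1+ cells as well. Of 16 tested, 11 fell and 0 rose against Fli1- cells (median log2 fold change -3.16). The RNA-binding neuronal gene elavl3 stood at 16.3 and 5.17 FPKM in High-Fli1+, 274 and 223 in Low-Fli1+ libraries and 389 and 368 in Fli1- libraries (log2 fold change -5.20 ± 0.48 (SE), adjusted p = 0.00376 by limma). The zinc-finger gene insm1a, expressed as progenitors leave the cell cycle, stood at 4.03 and 0.0501 FPKM in High-Fli1+, 13.8 and 26.2 in Low-Fli1+ libraries and 68.3 and 76.8 in Fli1- libraries (adjusted p = 0.0115 by limma). The log2 fold changes of the zinc-finger gene myt1b and the stathmin gene stmn1b were -4.92 and -4.70 (adjusted p = 0.00315 and 0.00235 by limma). None of the 16 was called in Low-Fli1+ against Fli1- cells by limma, while all 16 had a log2 fold change under 0 there and 4 an unadjusted p under 0.05. Under median-ratio scaling 1 was called lower.

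Around olig2, 3 of 11 lineage genes tested fell and 1 rose in High-Fli1+ against Fli1- cells. The motor neuron and retinal factor isl1 stood at 3.56 and 1.80 FPKM in High-Fli1+, 62.4 and 41.9 in Low-Fli1+ libraries and 50.3 and 44.8 in Fli1- libraries, so that Low-Fli1+ and Fli1- values overlapped while olig2 itself was at 0 and 2.41 against 9.45 and 16.3 FPKM. The myelin gene plp1a was listed at 0 in both High-Fli1+ libraries and at 0 and 1.18 in Low-Fli1+ libraries, against 3.71 and 3.10 FPKM in Fli1- libraries. It too passed the filter through the Fli1- libraries, and its call (adjusted p = 0.0466 for High-Fli1+ cells by limma) rests on listed values of 0. The motor neuron gene mnx2b was listed at 0 in all 4 reporter-positive libraries and stood at 1.84 and 2.88 FPKM in Fli1- libraries, through which it passed the filter (adjusted p = 0.0401 for High-Fli1+ cells by limma). The gene sox10, a factor of oligodendrocytes and of neural crest, rose to 29.6 and 25.6 FPKM in High-Fli1+ libraries, against 8.06 and 4.38 in Fli1- libraries (log2 fold change 2.03 ± 0.39 (SE), adjusted p = 0.0212 by limma). Under quantile normalization 1 of the 11 was called lower, in place of 3.

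Of the 34 genes of these lists called in High-Fli1+ against Fli1- cells, 3 kept the call without each library in turn, namely neurod1, stmn1b and notch2. Of the 5 calls in Low-Fli1+ against Fli1- cells 0 did so, each being lost without at least 3 libraries.

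**Figure D3:**
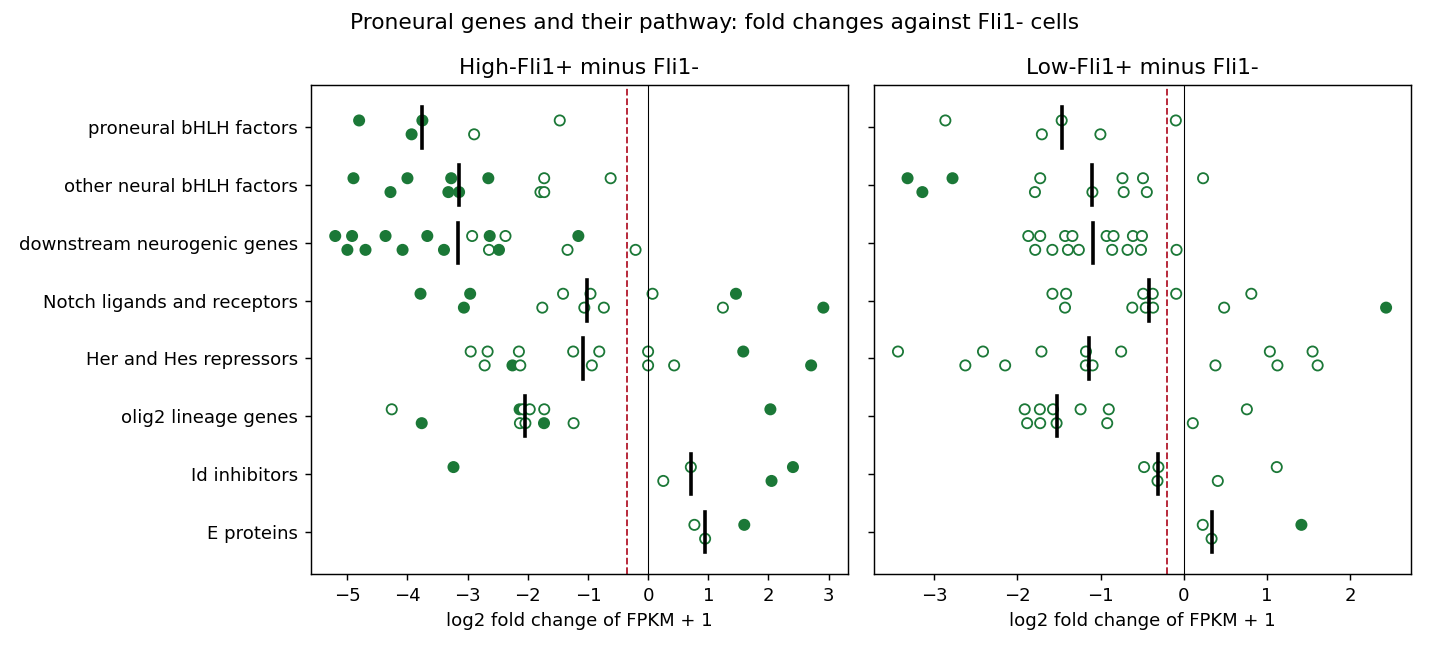
Log2 fold changes of FPKM + 1 (horizontal axis) of single genes, by list (rows), in High-Fli1+ (left) and Low-Fli1+ (right) against Fli1- cells. Filled points are called by limma, black bars are list medians and the dashed line is the median of all genes tested, -0.35 on the left and -0.21 on the right.

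The members were set beside markers of the cell types the populations could hold. The 8 neuron markers summed to 99.0 and 37.7 FPKM in High-Fli1+, 974 and 636 in Low-Fli1+ libraries and 1748 and 1505 in Fli1- libraries. All 8 fell in High-Fli1+ against Fli1- cells. Of these markers elavl3, elavl4, stmn1b and gap43 are also among the downstream genes above, so their falls are counted in both lists. The 9 neural progenitor markers summed to 22.0 and 28.5 FPKM in High-Fli1+, 196 and 163 in Low-Fli1+ libraries and 432 and 538 in Fli1- libraries. In High-Fli1+ against Fli1- cells 8 of them fell, and in Low-Fli1+ against Fli1- cells 2, or 1 under either quantile normalization or median-ratio scaling. The 2 called in Low-Fli1+ cells were fabp7a and sox19b. At an unadjusted p under 0.05 by limma, 8 of the 9 were lower in Low-Fli1+ against Fli1- cells. All 9 had a log2 fold change under 0 there. The 8 include sox19a, sox1a and sox19b, which had Low-Fli1+ values listed at 0. The call of sox19b rests on values listed at 0 in both Low-Fli1+ libraries, and sox19b passed the filter through the Fli1- libraries. The count for High-Fli1+ cells includes sox19b (0.483 and 0 FPKM there) and sox1b (0 and 0.562 FPKM). Like sox19b, sox1b reached the filter through its Fli1- values, 5.88 and 6.67 FPKM. That count also includes sox1a, whose call was fitted against High-Fli1+ values of 0, not read as absence. Of the neuron markers 0 were called in Low-Fli1+ against Fli1- cells by limma, with 3 lower at an unadjusted p under 0.05, and 1 was lower under median-ratio scaling.

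The 6 retina markers kept a level in Low-Fli1+ cells much as neurod4 did. They summed to 17.3 and 9.86 FPKM in High-Fli1+, 287 and 244 in Low-Fli1+ libraries and 301 and 274 in Fli1- libraries, and all 6 fell in High-Fli1+ against Fli1- cells (5 under median-ratio scaling) while 0 were called in Low-Fli1+ against Fli1- cells by limma, also at an unadjusted p under 0.05. The photoreceptor factor otx5 stood at 3.13 and 3.29 FPKM in High-Fli1+, 74.6 and 69.6 in Low-Fli1+ libraries and 72.9 and 76.2 in Fli1- libraries. The part of retinal cells in the neurod4 level was not tested.

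Endothelial and cartilage markers ran the other way, leukocyte markers stood highest in Low-Fli1+ cells, and red cell markers ran in the same direction as the members. The 7 endothelial markers summed to 102 and 111 FPKM in High-Fli1+, 11.4 and 17.9 in Low-Fli1+ libraries and 5.63 and 2.46 in Fli1- libraries, and 6 of them rose in High-Fli1+ against Fli1- cells, while 0 were called in Low-Fli1+ cells by limma, also at an unadjusted p under 0.05. Of these markers kdr and pecam1 were listed at 0 in both Fli1- libraries. Both passed the filter on low values through the High-Fli1+ libraries, so their calls rest on listed values of 0. Cartilage markers summed to 9872 and 8152 FPKM in High-Fli1+, 975 and 978 in Low-Fli1+ libraries and 112 and 154 in Fli1- libraries, and all 4 rose in both comparisons against Fli1- cells. The 5 leukocyte markers summed to 99.6 and 130.1 FPKM in High-Fli1+, 428 and 588 in Low-Fli1+ libraries and 10.3 and 12.2 in Fli1- libraries, and 4 rose in both comparisons. The macrophage marker mpeg1.1 was not called (adjusted p = 0.0992 by limma in High-Fli1+ against Fli1- cells), at 0.670 and 0.412 FPKM in High-Fli1+, 13.2 and 23.7 in Low-Fli1+ libraries and 3.26 and 3.50 in Fli1- libraries. The 6 red cell markers summed to 66.7 and 54.5 FPKM in High-Fli1+, 3096 and 4832 in Low-Fli1+ libraries and 40750 and 31550 in Fli1- libraries, and all 6 fell in High-Fli1+ and 3 in Low-Fli1+ against Fli1- cells. The part of these other cells in the members' levels was not tested.

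**Figure D4:**
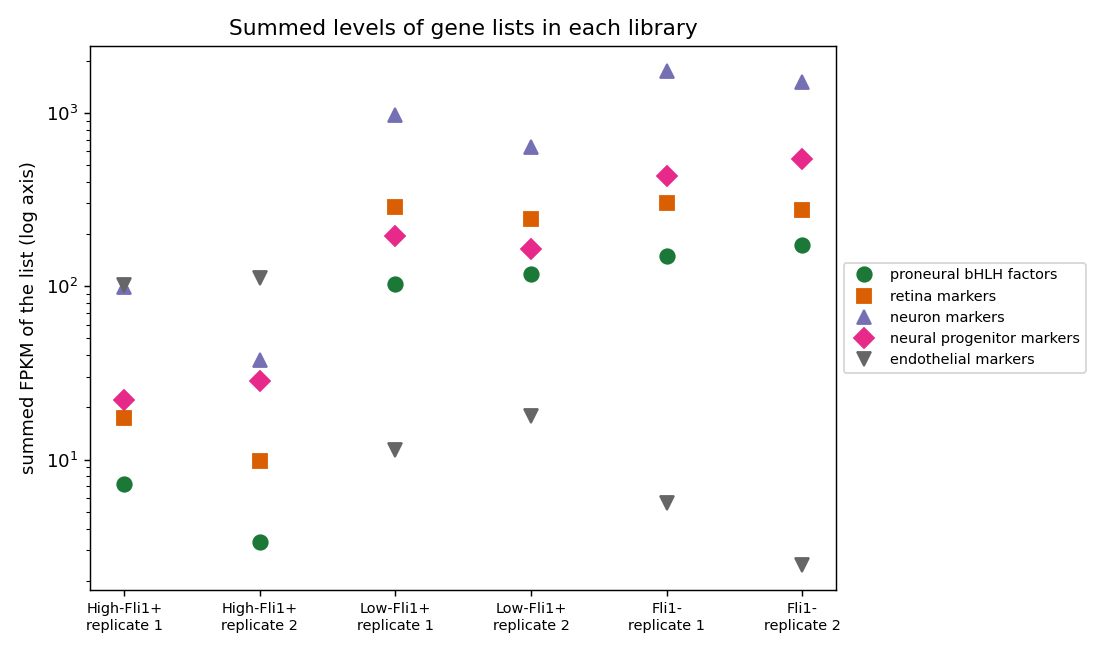
Summed FPKM (vertical log axis) of the 6 proneural genes and of markers of retina, neurons, neural progenitors and endothelium in each of the 6 libraries. Retina markers stood at 287 and 244 FPKM in Low-Fli1+ libraries and at 301 and 274 in Fli1- libraries, while proneural genes stood at 103 and 118 against 149 and 173.

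For each member, the genes with the most similar pattern over the 6 libraries were found by Pearson's r of log2(FPKM + 1). They were sought among 11693 genes with a mean of at least 5 FPKM. Here r compares the pattern and not the level or the size of a change. The libraries fall into 3 populations, so r mostly reflects the pattern between populations. For neurod4 the nearest were syt5b (r = 0.9996), nyap2b (0.9994) and nptxra (0.9992). All 3 were scarce in High-Fli1+ libraries and near the Fli1- level in Low-Fli1+ libraries. For example, syt5b, a synaptotagmin, was at 1.15 and 0.253 FPKM in High-Fli1+, 51.5 and 49.9 in Low-Fli1+ libraries and 58.2 and 57.2 in Fli1- libraries. As many as 811 genes had r of at least 0.95 with neurod4.

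For neurod6b the nearest were adnpa (0.9998), fmnl2b (0.9991) and an entry for ACAP2 (0.9977), with 426 genes at 0.95 or more. For neurod2 they were the neuronal microtubule protein gene map2 (0.9979), sh3gl3a (0.9955) and blmh (0.9949), all with Low-Fli1+ replicate 1 near the Fli1- level and replicate 2 near the High-Fli1+ level. The map2 values were 13.8 and 19.1 FPKM in High-Fli1+, 51.9 and 15.0 in Low-Fli1+ libraries and 55.2 and 54.3 in Fli1- libraries. Since they were chosen for likeness over these 6 libraries, the shared split between the Low-Fli1+ libraries follows from the choice.

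For olig2 they were the insulin gene ins (0.9982), MSI2 (0.9944) and cog3 (0.9914). The gene ins was listed at 0 in both High-Fli1+ libraries and stood at 0 and 12.3 FPKM in Low-Fli1+ libraries and at 116 and 211 in Fli1- libraries. For neurog1 and atoh1a the nearest entries had values above 0 in the same Fli1- libraries alone, most of them with clone-based names.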

How the data were processed

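RNA was sequenced from 6 libraries of zebrafish cells, 2 for each of 3 populations. Per the labels' protocols, 100 ng of total RNA was enriched for poly-A mRNA and made into double-stranded cDNA. The deposited values are FPKM per gene, per the file headers, made by the authors; aligner, build and annotation are not given in the sources used here. Of 29144 entries, 18 named by a calendar date were left out. Genes with a mean of at least 0.5 FPKM were tested (19237, with 9889 removed), which kept 5 of the 6 members. Values were taken as log2(FPKM + 1) and all 6 libraries entered 1 limma 3.58.1 model by population (R 4.3.3) with a variance trend, 3 residual and 2.89 prior degrees of freedom. Adjusted p-values are Benjamini-Hochberg over all genes tested. With 2 libraries against 2, no exact permutation test can reach the threshold, so none was run. The procedure was tested on simulated data in which decreases were put into genes of higher mean level alone. Decreases in genes with means as low as those of neurog1, neurod2 and olig2 were not simulated. FPKM hold no depth, so no counting error can be given. The alternatives changed the pseudocount, filter, scaling, variance trend, libraries in the fit and replicate block.

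The members and companion lists were chosen with earlier results of these data known. A result on further genes of the group is not reported here. Named were all members given and up to 4 called genes per companion list with the largest changes against Fli1- cells. Named too were the 3 genes with the highest r to each member. Of the companion genes tcf4, jag2a, dcc, cbfa2t3 and lhx3 were not found under these names. The files hold no sequences or coordinates, and none are printed.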

Additional observations from a re-analysis of the deposited data

How the results depend on the processing

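With 2 libraries per population the calls rest on few degrees of freedom. In High-Fli1+ against Fli1- cells 3 members were called, with 3 or 4 under the settings that used all 6 libraries and 5 with only the 2 populations compared. Without a filter on low values these were neurod4, neurod6b and neurog1, with olig2 lost. Leaving out 1 library gave 1 to 5 of 6 and 201 to 4906 of all genes, against 3316. In Low-Fli1+ against Fli1- cells 0 members were called by limma, with 2 at an unadjusted p under 0.05, and 1 was called without a filter on low values. Leaving out 1 library gave 0 to 1 member and 0 to 797 genes, against 622. In High-Fli1+ against Low-Fli1+ cells it gave 0 to 2 members and 0 to 2262 genes, against 2 and 1033. There 1 member was called with a pseudocount of 0.1 or 5, without a filter, under quantile normalization, median-ratio scaling, without a variance trend or with the replicate block, and 0 of 6 with only the 2 populations compared, with 2 at an unadjusted p under 0.05. Without a filter 183 genes were called there.

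With only the 2 populations compared, limma called 0 genes in High-Fli1+ against Low-Fli1+ (3686 at an unadjusted p under 0.05) and 0 in Low-Fli1+ against Fli1- cells (3875). The numbers of replicates did not pair the libraries by the labels, and deviations of same-numbered libraries correlated at 0.0806 to 0.121 across genes. The replicate block moved the genes called in Low-Fli1+ against Fli1- cells to 335. The log2 fold change of neurod2 in High-Fli1+ against Low-Fli1+ cells ran from -2.61 to 0.24 when 1 library was left out and was the single member value that turned, without Low-Fli1+ replicate 1. Of 221 other values of single members under the alternatives fixed at the start, 176 were counted as unchanged in direction and side of the threshold, 29 lost the call and 16 gained it. The 176 include values with no direction to keep. These are neurog1 in High-Fli1+ against Low-Fli1+ cells, listed at 0 in every library compared. They also include olig2 there without the Low-Fli1+ library in which it was above 0. The 16 include calls that are not read. These are neurog1 without either Fli1- library, and olig2 in Low-Fli1+ against Fli1- cells without Low-Fli1+ replicate 2. The counts of members called with 1 library left out hold these calls too.

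An alternative chosen after seeing the data recomputed the filter without the library left out. Counts of genes were then 0 to 4981 in High-Fli1+ against Fli1- cells (714 and 191 without High-Fli1+ replicates 1 and 2), 0 to 1174 in Low-Fli1+ against Fli1- and 0 to 2705 in High-Fli1+ against Low-Fli1+ cells, and of members 0 to 5, 0 to 1 and 0 to 2. The neurod4 call in High-Fli1+ against Fli1- cells was then lost without either Fli1- library, at a highest adjusted p of 0.0610. The scaling moved the share of higher calls in that comparison, 33.6%, to 49.2% (quantile normalization) or 43.2% (median-ratio scaling), and 3 members were called lower with each. In High-Fli1+ against Low-Fli1+ cells this share was 22.7%, and 32.2% and 40.4% with these scalings. The cause of these changes was not tested.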
